A study of Mus musculus with 44 samples.

Results

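A set of 9 genes that encode proteins secreted by the liver with known effects on metabolism were followed across mouse livers of 3 genotypes on 3 diets. They are Fgf21, Gdf15, Inhbe, Angptl4, Angptl6, Angptl8, Fetub, Ahsg and Rbp4, taken by symbol from the deposited table of 35249 genes, and all 9 passed the filter on low counts that left 14862 genes for testing. The mice were wild type (WT), Ripk3-/- (Ripk3KO) or Mlkl-/- (MlklKO), entered at 2 months of age and were then kept for 6 months on chow (the control diet) or on a diet without choline that was low in fat (CD-LFD) or high in fat (CD-HFD). RIPK3 is a kinase and MLKL its substrate that permeabilises the plasma membrane in necroptosis, so both knockouts remove a step of that form of cell death. No other allele is named for any group, the labels give no tissue restriction for either knockout, and sex, strain background and litter are not given. The libraries numbered 6 WT on each diet, 6, 3 and 4 Ripk3KO and 6, 4 and 3 MlklKO on control diet, CD-LFD and CD-HFD, and p-values measure the spread between these samples.

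Hepatocytes release hormones and carriers that report the state of the liver to other tissues. FGF21 acts through FGF receptors with the co-receptor beta-klotho, GDF15 acts on GFRAL in the hindbrain to lower food intake, and the activin E subunit encoded by Inhbe restrains fat breakdown in adipose tissue; transcription of Fgf21, Gdf15 and Inhbe is known to respond to the integrated stress response through ATF4 and related factors. ANGPTL4 and ANGPTL8 control lipoprotein lipase, in fasting and in feeding respectively, and ANGPTL6 is a circulating factor linked to energy expenditure. The fetuins encoded by Ahsg and Fetub are abundant plasma glycoproteins, of which the first inhibits the insulin receptor, and RBP4 carries retinol in blood bound to transthyretin.

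Because Fgf21 and Gdf15 moved together across the groups (Pearson r = 0.969 over the 9 group means of log2 CPM, a description), the bases before their starts were read beside those of the other members. Windows of 250 bases that end at the annotated start came from RefSeq (GRCm38.p6) for 8 of the 9 genes, 11 windows in all, with none for Angptl4. The C/EBP-ATF composite element was searched as TGATGNAA, a cyclic AMP response element as TGACGTCA and an E-box as CACGTG, and the direct repeat known to bind PPAR with RXR was searched too, each on both strands. These 4 windows are shown 5′ to 3′ on the strand of the gene, with a match to TGATGNAA on either strand in capitals.
Fgf21, chr7:45615491-45615740, minus strand: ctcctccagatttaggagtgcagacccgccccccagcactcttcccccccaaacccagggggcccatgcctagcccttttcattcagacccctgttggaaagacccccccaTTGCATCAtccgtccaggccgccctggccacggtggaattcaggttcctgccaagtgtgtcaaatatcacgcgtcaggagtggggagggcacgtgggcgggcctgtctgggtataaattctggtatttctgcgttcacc
Inhbe, chr10:127351849-127352098, minus strand: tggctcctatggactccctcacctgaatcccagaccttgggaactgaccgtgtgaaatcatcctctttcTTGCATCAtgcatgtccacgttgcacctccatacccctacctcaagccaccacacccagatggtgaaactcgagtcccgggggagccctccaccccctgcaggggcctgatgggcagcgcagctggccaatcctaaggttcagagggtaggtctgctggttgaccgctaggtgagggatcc
Angptl8, chr9:21835260-21835509, plus strand: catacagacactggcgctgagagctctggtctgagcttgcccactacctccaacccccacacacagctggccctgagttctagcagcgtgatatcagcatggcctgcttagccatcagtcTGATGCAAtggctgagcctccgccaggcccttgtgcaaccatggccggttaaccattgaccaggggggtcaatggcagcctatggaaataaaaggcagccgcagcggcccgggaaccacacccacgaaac
Gdf15, chr8:70632096-70632345, minus strand: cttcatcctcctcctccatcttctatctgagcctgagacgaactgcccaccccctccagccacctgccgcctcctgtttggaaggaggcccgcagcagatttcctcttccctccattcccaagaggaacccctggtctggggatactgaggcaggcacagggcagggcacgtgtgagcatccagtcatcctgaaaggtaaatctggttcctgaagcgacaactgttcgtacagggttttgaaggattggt
The Fgf21 match lay 139 to 132 bases before the start, that of Inhbe 181 to 174 bases before it and that of Angptl8 130 to 123 bases before it. With 1 of the Rbp4 windows, 4 of 11 member windows held the composite element, against 3.45% of 32851 windows of the same length. The Gdf15 window held no such match. An E-box stood in the Fgf21 window, 50 to 45 bases before the start, and in the printed Gdf15 window, 83 to 78 bases before it, against 6.02% of all windows. TGACGTCA and the direct repeat were in none of the 11 windows, against 1.55% and 0.0335% of all windows. A match is a run of letters and no evidence of binding.

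The 9 genes together held 0.68% to 1.49% of the counts of a library. Per kilobase of the longest annotated transcript, mean levels in WT control livers ran from 1.34 CPM per kb for Fgf21 to 3484 CPM per kb for Ahsg, with Gdf15 at 6.55, Angptl6 at 10.5, Inhbe at 11.04, Angptl4 at 28.0, Angptl8 at 267, Fetub at 511 and Rbp4 at 2700 CPM per kb. CPM here are counts scaled to library size with TMM factors. Fgf21 had its lowest group mean, 0.594 CPM, in MlklKO control livers, on 0 to 7 counts a library. The lowest and highest group means of Fgf21 differed 160-fold, those of Angptl8 18.8-fold and those of Gdf15 8.74-fold. The same ratio was 4.08 for Angptl6 and 3.55 for Angptl4, and between 1.63 and 2.11 for Ahsg, Rbp4, Inhbe and Fetub.

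The libraries held between 2476268 and 12471844 counts, except for 88204703 in replicate 3 of WT on CD-LFD. Ripk3 in libraries labelled Ripk3KO reached at most 1.26 CPM (9 counts, control replicate 5), against 0.511 to 4.89 CPM in WT control. Mlkl in libraries labelled MlklKO was lower than in WT on control diet (log2 difference -1.15, adjusted p = 0.00225) and CD-LFD (-1.71, adjusted p = 0.00016), but on CD-HFD replicate 1 with the label MlklKO held 12.5 CPM, against 4.83 and 2.80 CPM in the other two (-1.29, adjusted p = 0.294). The log2 ratio of the clock genes Arntl and Dbp, which peak at opposite times of day, split the libraries at its widest gap (1.01) into 11 high and 33 low. All 26 knockout libraries were on the low side and all 6 WT CD-LFD libraries on the high side, with 4 of 6 WT control and 1 of 6 WT CD-HFD libraries also high. Clock phase and genotype therefore cannot be told apart on CD-LFD.

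**Figure D1:**
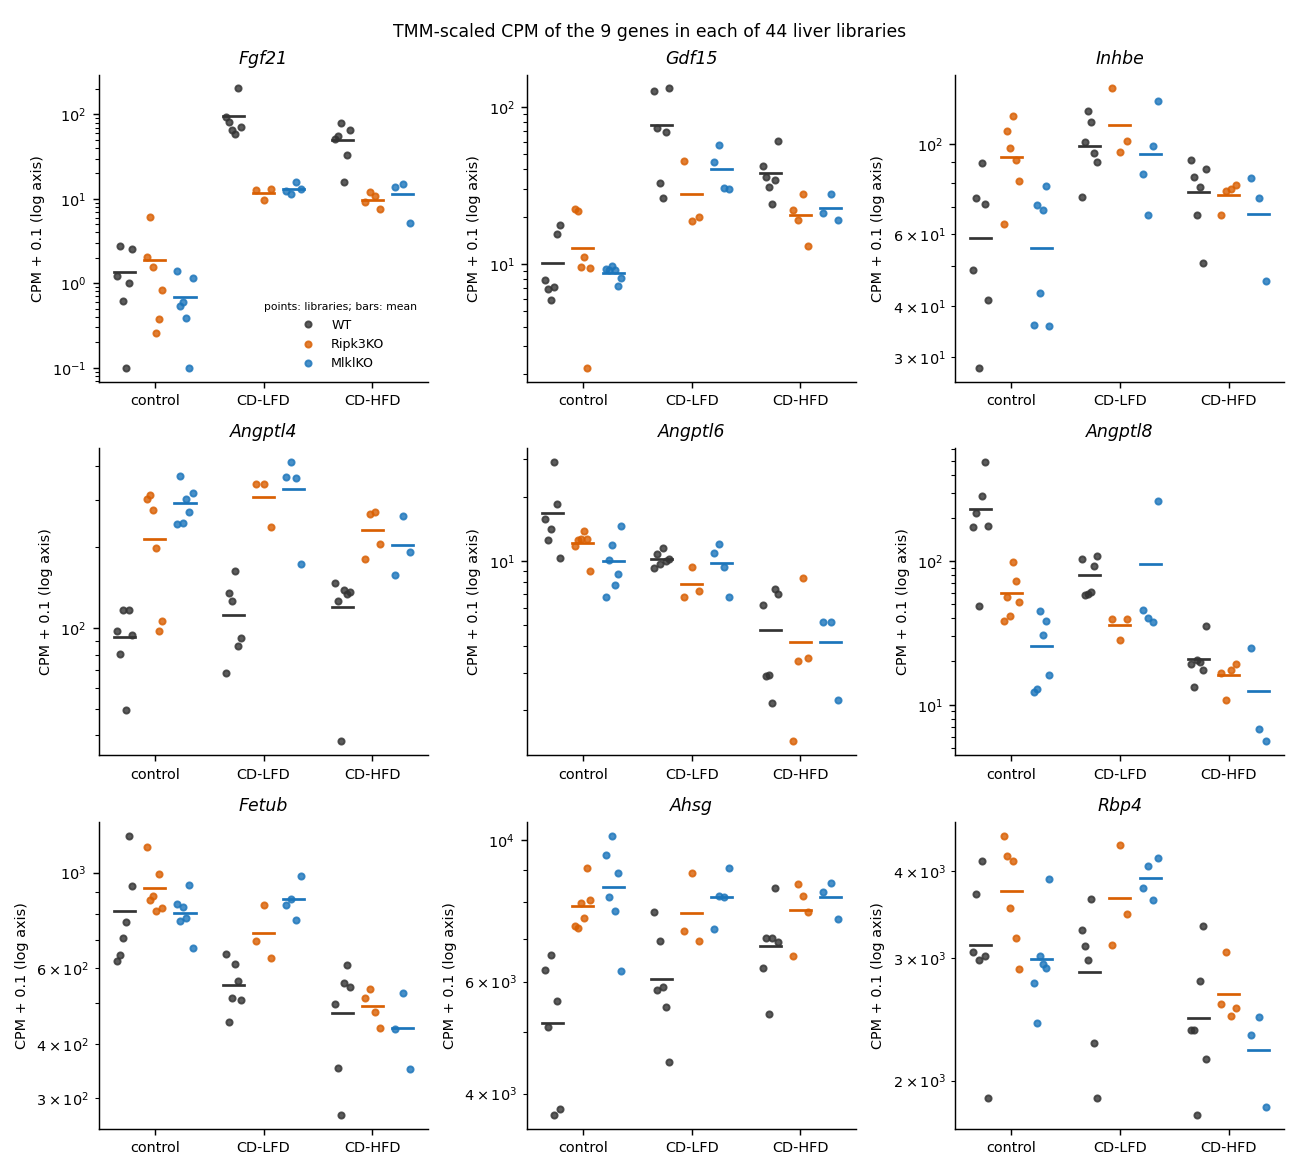
Each point is 1 library, coloured by genotype and grouped by diet, on a log axis of TMM-scaled CPM plus 0.1, and bars are group means. Fgf21 in the 6 WT CD-LFD libraries lies between 59.1 and 203 CPM, above all other groups except WT CD-HFD.

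In WT livers CD-LFD changed 5 of the 9 genes at an adjusted p under 0.05 in edgeR's quasi-likelihood test, where 27.7% of all tested genes were called (13.7% higher, 14% lower). Fgf21, Gdf15 and Inhbe rose and Angptl8 and Fetub fell. CD-HFD changed 6, with Fgf21, Gdf15 and Ahsg higher and Angptl6, Angptl8 and Fetub lower, where 47.7% of genes were called (23.5% higher, 24.1% lower). Between CD-HFD and CD-LFD in WT 3 members differed, Gdf15, Angptl6 and Angptl8, all lower on CD-HFD, against 21.1% of genes (13.7% higher, 7.4% lower).
In Ripk3KO livers CD-LFD raised Fgf21 and Gdf15 (2 of 9, 24.1% of genes called, 14% higher and 10.1% lower), and CD-HFD changed 5, with Fgf21 higher and Angptl6, Angptl8, Fetub and Rbp4 lower (46.3% of genes called, 24.6% higher and 21.7% lower). In MlklKO livers CD-LFD raised 4, Fgf21, Gdf15, Angptl8 and Inhbe (37.9% of genes called, 19.7% higher and 18.3% lower), and CD-HFD changed 4, with Fgf21 and Gdf15 higher and Angptl6 and Fetub lower (45.2% of genes called, 24.9% higher and 20.3% lower). CD-HFD against CD-LFD called 0 members in Ripk3KO by DESeq2. By edgeR it also called 0, with 4 at an unadjusted p under 0.05 and 8.83% of genes called (5.75% higher, 3.08% lower). In MlklKO it called 4, Angptl6, Angptl8, Fetub and Rbp4, all lower, where 23.7% of genes were called (14.6% higher, 9.14% lower). The diet comparisons within a genotype share their control libraries.

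**Figure D2:**
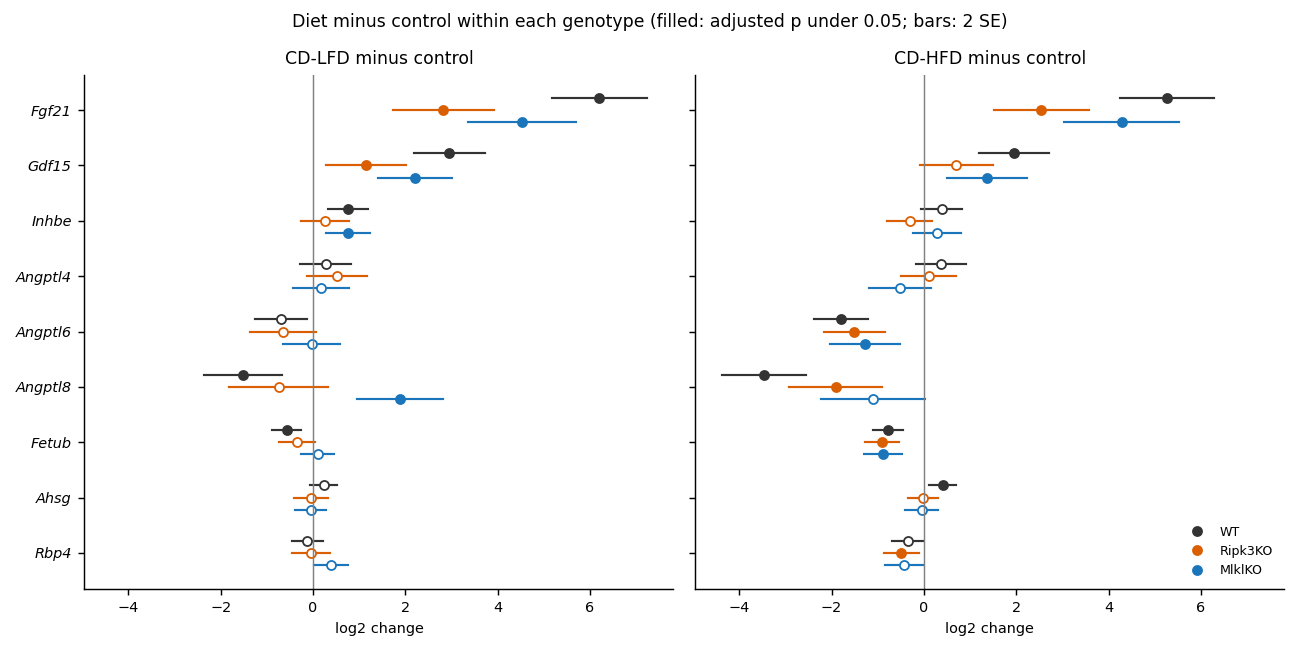
Log2 change of each gene on CD-LFD (left) and CD-HFD (right) against control within each genotype, with bars of 2 SE and filled points at an adjusted p under 0.05. Fgf21 lies right of 0 in all 6 comparisons, from 2.54 in Ripk3KO on CD-HFD to 6.20 in WT on CD-LFD.

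Fgf21, the fibroblast growth factor that liver secretes as a hormone in fasting and stress, had the largest diet change of the 9. In WT control livers its level ran from 0 to 2.69 CPM (median 1.01), on 0 to 11 counts a library. On CD-LFD it was 59.1 to 203 CPM (median 76.5) and on CD-HFD 15.6 to 78.7 CPM (median 53.5). No library of either diet overlapped the control libraries. The fitted rise was 73.6-fold on CD-LFD (log2 6.20 ± 0.515 SE, adjusted p = 3.28e-12) and 38.5-fold on CD-HFD (log2 5.27 ± 0.512 SE, adjusted p = 3.43e-11), sizes that rest on few counts in the controls.
In Ripk3KO livers Fgf21 was 0.158 to 6.07 CPM (median 1.09) on control diet. It was 9.70, 12.7 and 12.9 CPM on CD-LFD and 7.42, 8.99, 10.6 and 11.8 CPM on CD-HFD. Every library on a choline-deficient diet exceeded every control library, with log2 rises of 2.82 ± 0.545 SE (adjusted p = 0.000192) and 2.54 ± 0.515 SE (adjusted p = 8.49e-05). Without Ripk3KO control replicate 2, the library at 6.07 CPM, these were 3.74 and 3.45. In MlklKO livers control values were 0 to 1.29 CPM (median 0.469), CD-LFD values 11.3, 12.5, 13.0 and 15.9 CPM and CD-HFD values 5.06, 13.6 and 14.9 CPM. Those rises were 4.52 ± 0.587 SE (adjusted p = 2.29e-07) and 4.28 ± 0.623 SE (adjusted p = 3.61e-07), again without overlap.

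Between genotypes Fgf21 was lower in both knockouts on CD-LFD, by 8.04-fold in Ripk3KO (log2 -3.01 ± 0.515 SE, adjusted p = 0.000732) and 7.25-fold in MlklKO (log2 -2.86 ± 0.449 SE, adjusted p = 0.000119). The highest knockout library there, at 15.9 CPM, was below the lowest WT library at 59.1 CPM. With clock phase as a covariate these were -2.44 (adjusted p = 0.52) and -2.29 (adjusted p = 0.555).
On CD-HFD, where 5 of 6 WT libraries shared the clock side of the knockouts, Ripk3KO was lower by 5.13-fold (log2 -2.36 ± 0.442 SE, adjusted p = 0.0058) and MlklKO differed by -2.16 ± 0.496 SE without passing the test (adjusted p = 0.294). The lowest WT CD-HFD library, at 15.6 CPM, was above the highest knockout library at 14.9 CPM. Among libraries of the low clock side alone the 2 differences were -2.21 (adjusted p = 0.0109) and -2.03 (adjusted p = 0.111). The Ripk3KO call was lost without Ripk3KO CD-HFD replicate 5 (adjusted p = 0.0516). The difference between genotypes in the diet change itself was -3.38 ± 0.817 SE for Ripk3KO on CD-LFD (adjusted p = 0.125) and -2.73 ± 0.786 SE on CD-HFD (adjusted p = 0.101) by edgeR, and was called for both by DESeq2 (adjusted p = 0.0094 and 0.0221). Without Ripk3KO control replicate 2 the edgeR values were -2.46 (adjusted p = 0.315) and -1.82 (adjusted p = 0.343). For MlklKO it was -1.68 ± 0.943 SE (adjusted p = 0.278) and -0.98 ± 0.962 SE (adjusted p = 0.642).

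Gdf15, a distant TGF-beta family member secreted under cell stress, was also highest in WT livers on CD-LFD, with smaller changes. WT control libraries held 5.79 to 17.6 CPM (median 7.47), CD-LFD libraries 26.1 to 131 CPM (median 71.1) and CD-HFD libraries 23.9 to 60.7 CPM (median 34.9). The control libraries stood below both diets without overlap. The rise was 7.75-fold on CD-LFD (log2 2.95 ± 0.388 SE, adjusted p = 2.58e-07) and 3.85-fold on CD-HFD (log2 1.95 ± 0.381 SE, adjusted p = 4.82e-05), and CD-HFD was lower than CD-LFD (log2 -1.01 ± 0.342 SE, adjusted p = 0.0293), a call that was lost in 6 of 12 fits that left out 1 library and with clock phase as a covariate (adjusted p = 0.365).
In Ripk3KO livers control values were 2.10 to 22.4 CPM (median 10.2), CD-LFD values 18.8, 19.7 and 45.2 CPM and CD-HFD values 12.9, 18.9, 21.98 and 27.8 CPM. Both diets overlapped the controls there. The CD-LFD rise of 1.15 ± 0.431 SE had an adjusted p of 0.0472 and was lost in 6 of 9 fits without 1 library, and the CD-HFD change was 0.70 ± 0.400 SE (adjusted p = 0.148). In MlklKO livers control values were 7.18 to 9.67 CPM (median 9.08), CD-LFD values 30.1, 30.2, 44.4 and 56.8 CPM and CD-HFD values 18.9, 21.1 and 27.8 CPM. Neither diet overlapped control there, with rises of 2.21 ± 0.399 SE (adjusted p = 4.67e-05) and 1.38 ± 0.434 SE (adjusted p = 0.00869), the second lost without MlklKO CD-HFD replicate 2 (adjusted p = 0.0683). No knockout differed from WT on any diet by the test, with log2 differences between -1.46 and 0.35.

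Inhbe encodes the activin beta-E subunit, made almost only in liver. WT values were 28.1 to 89.5 CPM on control diet (median 60.1), 73.8 to 120 CPM on CD-LFD (median 98.0) and 50.8 to 91.3 CPM on CD-HFD (median 80.7). The CD-LFD libraries sat high with some overlap. The change was 1.70-fold on CD-LFD (log2 0.76 ± 0.219 SE, adjusted p = 0.00814), and 0.38 ± 0.219 SE on CD-HFD (adjusted p = 0.15). In MlklKO the CD-LFD rise was also 1.70-fold (log2 0.76 ± 0.239 SE, adjusted p = 0.0114) and was lost without MlklKO CD-LFD replicate 4 (adjusted p = 0.0739). In Ripk3KO, whose control libraries held 63.4 to 117 CPM, the changes were 0.26 ± 0.262 SE on CD-LFD (adjusted p = 0.496) and -0.31 ± 0.243 SE on CD-HFD (adjusted p = 0.301).

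Angptl8, a feeding-induced regulator of lipoprotein lipase, was the member that fell most. WT control libraries held 48.4 to 490 CPM (median 195), CD-LFD libraries 57.8 to 109 CPM (median 76.8) and CD-HFD libraries 13.2 to 35.3 CPM (median 19.4). All CD-HFD libraries were below all CD-LFD and control libraries. The fall was 2.86-fold on CD-LFD (log2 -1.51 ± 0.421 SE, adjusted p = 0.00622), 11-fold on CD-HFD (log2 -3.46 ± 0.457 SE, adjusted p = 4.29e-08) and 3.85-fold between the 2 diets (log2 -1.95 ± 0.433 SE, adjusted p = 0.000818).
Both knockouts were already low on control diet, at 38.5 to 99.2 CPM in Ripk3KO (median 54.0) and 12.1 to 44.9 CPM in MlklKO (median 23.3). The MlklKO libraries lay below every WT control library, and the Ripk3KO libraries overlapped them through WT control replicate 3 alone, at 48.4 CPM. The log2 differences were -1.94 ± 0.429 SE (adjusted p = 0.00482) and -3.15 ± 0.452 SE (adjusted p = 2.41e-06), and among low-side clock libraries, with 2 WT control libraries left, -2.04 (adjusted p = 0.0445) and -3.23 (adjusted p = 0.000216). In a fit of the compared groups only the Ripk3KO difference was not called (adjusted p = 0.0511).
On CD-HFD the Ripk3KO libraries held 10.6, 16.6, 17.2 and 19.0 CPM and had fallen from control (log2 -1.92 ± 0.507 SE, adjusted p = 0.00193), while those of MlklKO held 5.46, 6.65 and 24.7 CPM (log2 -1.10 ± 0.565 SE, adjusted p = 0.108). The 24.7 CPM were in replicate 1, the library with 12.5 CPM of Mlkl, and without it the MlklKO change was -2.11 ± 0.685 SE (adjusted p = 0.0119). On CD-LFD the Ripk3KO libraries held 28.0, 39.2 and 39.7 CPM (log2 -0.75 ± 0.532 SE, adjusted p = 0.308). The MlklKO CD-LFD libraries held 37.9, 39.8, 45.4 and 260 CPM, the last in replicate 4. The fitted MlklKO rise of 1.88 ± 0.464 SE on CD-LFD (adjusted p = 0.0017) rested on that library, since without it the change was 0.66 (adjusted p = 0.236).
The diet changes of MlklKO and WT differed for Angptl8 by 3.40 ± 0.627 SE on CD-LFD (adjusted p = 0.00063; 1 member called, 8.45% of genes called, 4.37% higher and 4.08% lower) and by 2.35 ± 0.681 SE on CD-HFD (adjusted p = 0.0389; 1 member called, 4.12% of genes called, 1.58% higher and 2.54% lower). Those of Ripk3KO and WT were called for 0 members by edgeR on either diet, with 2 and 4 at an unadjusted p under 0.05. In edgeR 0.0269% of genes (0.00673% higher, 0.0202% lower) and 0.478% of genes (0.135% higher, 0.343% lower) were called. DESeq2 called 1 member each, and its share of all genes is not given here. Without MlklKO CD-LFD replicate 4 the CD-LFD difference was 2.17 (adjusted p = 0.0136), and without MlklKO CD-HFD replicate 1 the CD-HFD difference was 1.32 (adjusted p = 0.36). Angptl8 lies within Dock6 on the opposite strand, and the strand setting of the counting is not given in the sources used here. Dock6 was lower in WT on CD-HFD (log2 -0.91 ± 0.232 SE, adjusted p = 0.00121) and lower in both knockouts on control diet (-1.05 and -1.11), and its part in the Angptl8 counts was not tested.

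Angptl4, the fasting-induced inhibitor of lipoprotein lipase, was higher in both knockouts than in WT on control diet and CD-LFD, and no diet change was called in any genotype. WT libraries held 49.5 to 117 CPM on control diet (median 96.2), 68.1 to 164 CPM on CD-LFD (median 109) and 37.97 to 148 CPM on CD-HFD (median 135). All diet changes within a genotype had adjusted p of 0.166 or more, with log2 values between -0.69 and 0.52. The single low WT CD-HFD library, replicate 3 at 37.97 CPM, was also the only WT CD-HFD library on the high clock side. Among low-side libraries the WT CD-HFD change was called (log2 1.11, adjusted p = 0.0126), against 2 WT control libraries at 49.5 and 80.4 CPM. With library size alone the change was also called (0.86, adjusted p = 0.00757), but that scaling raised the median change of all genes too.
Ripk3KO libraries held 97.4 to 312 CPM on control diet (median 237), 239, 343 and 344 CPM on CD-LFD and 182, 206, 267 and 272 CPM on CD-HFD. MlklKO libraries held 244 to 370 CPM on control diet (median 287), 173, 361, 366 and 416 CPM on CD-LFD and 158, 193 and 262 CPM on CD-HFD. Except for Ripk3KO control replicates 5 and 6, each knockout library exceeded each WT library on the same diet. The control differences were 2.32-fold (log2 1.22 ± 0.275 SE, adjusted p = 0.00583) and 3.15-fold (log2 1.66 ± 0.278 SE, adjusted p = 2.82e-05), and those on CD-LFD 2.76-fold (1.46 ± 0.318 SE, adjusted p = 0.00994) and 2.94-fold (1.55 ± 0.297 SE, adjusted p = 0.00132). The CD-LFD call of Ripk3KO was lost without its replicate 1 (adjusted p = 0.0674) or 2 (adjusted p = 0.101).
On CD-HFD the differences were 0.95 ± 0.297 SE (adjusted p = 0.191) and 0.77 ± 0.322 SE (adjusted p = 0.587). With clock phase as a covariate the CD-LFD differences were 1.35 (adjusted p = 0.706) and 1.44 (adjusted p = 0.65), and on control diet 1.13 (adjusted p = 0.244) and 1.57 (adjusted p = 0.0113). Among low-side libraries, with 2 WT control libraries left, the control differences were 1.72 (adjusted p = 0.0181) and 2.19 (adjusted p = 0.000453).

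**Figure D3:**
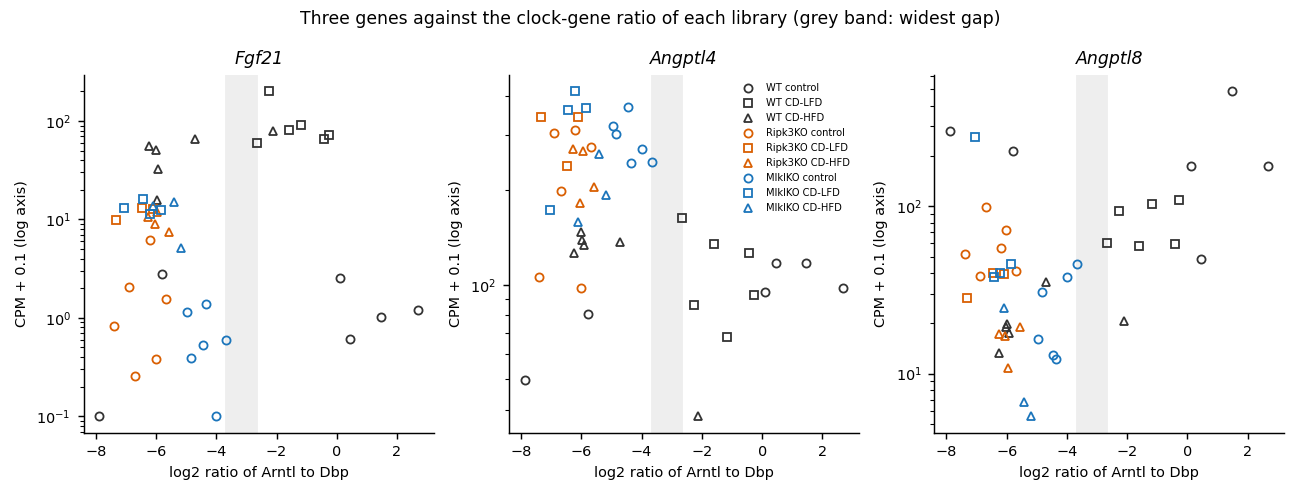
Each symbol is 1 library, with the log2 ratio of Arntl to Dbp on the horizontal axis and TMM-scaled CPM plus 0.1 on a log axis, and the grey band marks the widest gap of the ratio. All 26 knockout libraries lie left of the band and all 6 WT CD-LFD libraries right of it.

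Angptl6 was low throughout and fell on the high-fat diet in each genotype. WT libraries held 10.3 to 28.9 CPM on control diet (median 14.8), 9.21 to 11.4 CPM on CD-LFD (median 10.01) and 2.06 to 7.25 CPM on CD-HFD (median 4.47). The CD-HFD libraries lay below all others of WT. The fall was 3.49-fold (log2 -1.80 ± 0.290 SE, adjusted p = 1.92e-06), against -0.70 ± 0.278 SE on CD-LFD (adjusted p = 0.0561). The same fall was 2.85-fold in Ripk3KO (adjusted p = 0.000231), where CD-HFD libraries held 1.33, 3.29, 3.41 and 8.22 CPM, and 2.43-fold in MlklKO (adjusted p = 0.00515), where they held 2.13, 5.05 and 5.09 CPM. Without Ripk3KO CD-HFD replicate 3, the library at 8.22 CPM, the Ripk3KO change was -2.11 on the log2 scale. The MlklKO fall was lost without CD-HFD replicate 4 (adjusted p = 0.0619) and with library size alone (adjusted p = 0.0873). On control diet MlklKO was lower than WT (log2 -0.73 ± 0.281 SE, adjusted p = 0.049). This call was kept in 5 of 12 fits that left out 1 library and under 4 of 9 alternatives. A230050P20Rik overlaps Angptl6 on the opposite strand at a higher level (168 ± 129 CPM, SD, n = 6, in WT control) and rose in WT on CD-LFD (log2 0.93, adjusted p = 0.025), and its part in the Angptl6 counts was not tested.

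Fetub, a fetuin that inhibits the ovastacin protease, also fell on CD-HFD in each genotype. WT libraries held 623 to 1219 CPM on control diet (median 737), 450 to 647 CPM on CD-LFD (median 536) and 275 to 612 CPM on CD-HFD (median 520). The CD-HFD libraries did not reach the lowest control library. The falls were 1.49-fold on CD-LFD (log2 -0.57 ± 0.160 SE, adjusted p = 0.00643) and 1.72-fold on CD-HFD (log2 -0.79 ± 0.160 SE, adjusted p = 8.57e-05), the first not called under 4 of 8 alternatives.
In Ripk3KO and MlklKO the CD-HFD falls were 1.88-fold (adjusted p = 7.88e-05) and 1.85-fold (adjusted p = 0.000416), without overlap. Scaling by library size alone moved the median change of all genes on CD-HFD in WT from -0.07 to 0.43, and under it none of these 3 falls was called (log2 -0.30, -0.37 and -0.36). Among low-side clock libraries, with 2 WT control libraries left, the WT fall on CD-HFD was -0.42 (adjusted p = 0.064). On CD-LFD Fetub was higher in MlklKO than in WT by 0.66 ± 0.176 SE (adjusted p = 0.0301), lost in 7 of 10 fits that left out 1 library and with clock phase as a covariate (adjusted p = 0.838).

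Ahsg, the most abundant of the 9, encodes fetuin-A. WT libraries held 3705 to 6605 CPM on control diet (median 5337), 4490 to 7726 CPM on CD-LFD (median 5848) and 5331 to 8410 CPM on CD-HFD (median 6973). Values overlapped on all 3 diets, and the CD-HFD rise of 0.40 ± 0.149 SE (adjusted p = 0.024) was lost in 3 of 12 fits that left out 1 library and under 4 of 9 alternatives. On control diet Ahsg was higher in both knockouts, at 7287 to 9043 CPM in Ripk3KO and 6225 to 10180 CPM in MlklKO (log2 0.61 ± 0.150 SE, adjusted p = 0.0122, and 0.71 ± 0.150 SE, adjusted p = 0.000497). The Ripk3KO call was lost under 4 of 10 alternatives, with adjusted p of 0.121 with clock phase as a covariate, 0.238 in the compared groups only, 0.0692 without the count filter and 0.061 without WT control replicates 5 and 6. Within the knockouts the CD-HFD changes were -0.02 and -0.05, and 0.51 and 0.48 under library-size scaling.

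Rbp4, the plasma retinol carrier, had medians of 3041, 3054 and 2366 CPM in WT on control diet, CD-LFD and CD-HFD, and its WT changes were not called (log2 -0.13 and -0.35). The CD-HFD change was called under 3 of 9 alternatives and in 2 of 12 fits that left out 1 library. Among these alternatives were clock phase as a covariate (-0.60, adjusted p = 0.00539) and the low-side clock libraries (-0.55, adjusted p = 0.017), with 2 WT control libraries left. In Ripk3KO Rbp4 was 2893 to 4503 CPM on control diet and 2474, 2547, 2581 and 3066 CPM on CD-HFD (log2 -0.49 ± 0.190 SE, adjusted p = 0.0312, but 0.04 under library-size scaling). This change was called in 4 of 10 fits that left out 1 library and under 5 of 9 alternatives. RLE scaling, no count filter and DESeq2 also lost the call. In MlklKO Rbp4 was 3637, 3789, 4074 and 4175 CPM on CD-LFD and 1831, 2328 and 2473 CPM on CD-HFD, which did not overlap (log2 -0.83 ± 0.226 SE, adjusted p = 0.00632). That call was lost without MlklKO CD-HFD replicate 4 (adjusted p = 0.057) and with library size alone (adjusted p = 0.0644).

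The counts of members that differed between genotypes can be set against the share of all genes. On control diet 3 of 9 differed in Ripk3KO (4.47% of genes called, 2.25% higher and 2.23% lower) and 4 of 9 in MlklKO (27.1% of genes called, 13% higher and 14.1% lower). On CD-LFD 2 differed in Ripk3KO (Angptl4 higher, Fgf21 lower; 1.1% of genes called, 0.794% higher and 0.31% lower) and 3 in MlklKO (Angptl4 and Fetub higher, Fgf21 lower; 2.56% of genes called, 1.64% higher and 0.929% lower). On CD-HFD Fgf21 alone differed in Ripk3KO (0.377% of genes called, 0.209% higher and 0.168% lower). In MlklKO 0 of 9 were called on CD-HFD by edgeR and by DESeq2. In edgeR 2 had an unadjusted p under 0.05 and 0% of all genes were called.

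**Figure D4:**
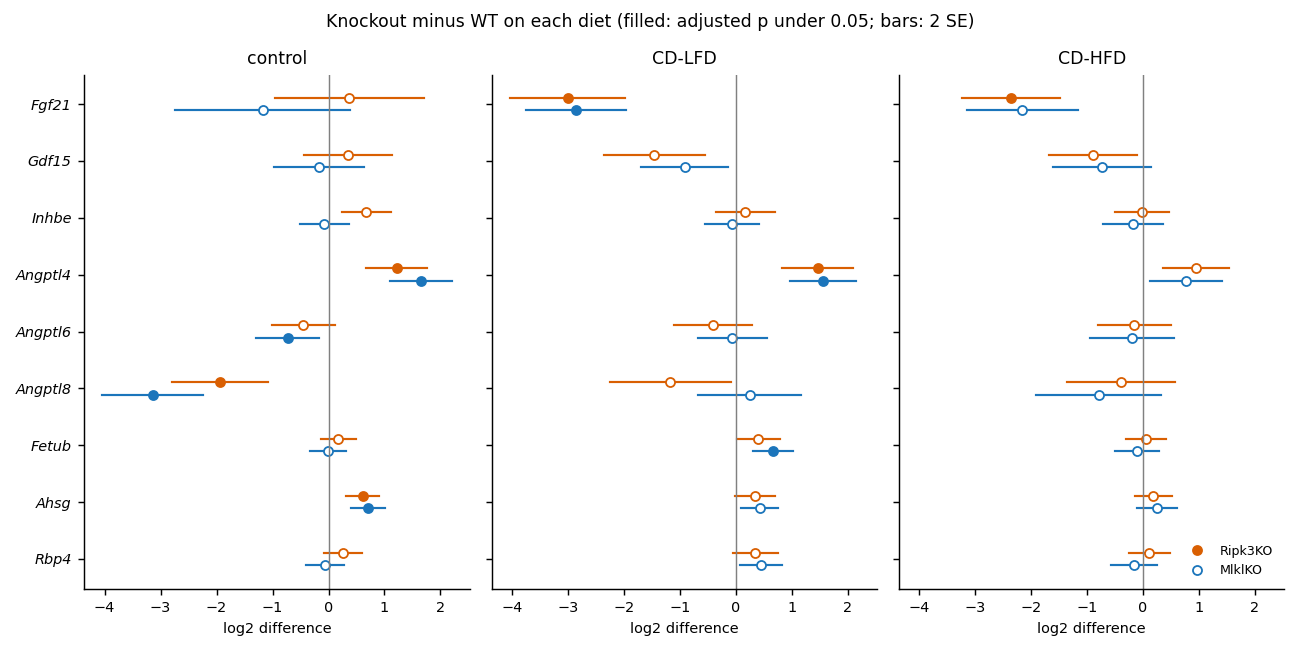
Log2 difference of each knockout from WT on control diet, CD-LFD and CD-HFD, with bars of 2 SE and filled points at an adjusted p under 0.05. Fgf21 lies near -3 on CD-LFD in both knockouts, and Angptl8 at -1.94 and -3.15 on control diet.

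Of 32 listed genes for receptors, binding partners and targets of the 9 proteins 25 were tested. In WT on CD-HFD 5 rose and 15 fell (median log2 -0.66, against -0.07 for all genes), where 23.5% of all genes rose and 24.1% fell, and on CD-LFD 4 rose and 6 fell, where 13.7% of all genes rose and 14% fell. On CD-HFD 5 rose and 12 fell in Ripk3KO, where 24.6% of all genes rose and 21.7% fell, and 6 rose and 8 fell in MlklKO, where 24.9% rose and 20.3% fell. Klb, the beta-klotho co-receptor of FGF21, fell in WT on CD-HFD from 24.9 ± 11.3 to 6.60 ± 1.03 CPM (SD, n = 6 each; log2 -1.94 ± 0.310 SE, adjusted p = 1.73e-06), Fgfr4 changed by -0.46 and Fgfr1 by 1.54. Lpl, the lipase that ANGPTL proteins inhibit, rose from 32.5 ± 8.40 to 423 ± 100 CPM (log2 3.70 ± 0.260 SE, adjusted p = 6.19e-15). Inha rose by 3.51 on the log2 scale from 0.306 ± 0.408 CPM. Ttr, which binds RBP4 in plasma, changed by -0.86, the retinol receptor gene Stra6l by -0.72 and the insulin receptor gene Insr by -0.65. Gfral and Acvr1c were not tested.

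The integrated stress response list held 15 genes, all tested. In WT 9 rose and 1 fell on CD-LFD (median log2 1.51), where 13.7% of all genes rose and 14% fell, and 10 rose and 1 fell on CD-HFD (median 1.64), where 23.5% of all genes rose and 24.1% fell. Nupr1, a stress-induced chromatin protein, rose by 4.34 ± 0.521 SE, Psat1 of serine synthesis by 3.82 ± 0.519 SE and the transcription factor Atf3 by 3.45 ± 0.385 SE on CD-HFD. Slc7a11, the cystine transporter, was at 0 in all 6 WT control libraries and at 3.94 ± 1.60 CPM (SD, n = 6) on CD-HFD. Atf4 itself was not called on either diet (log2 -0.29, adjusted p = 0.151, on CD-HFD). On CD-LFD 9 of 15 rose in each knockout, where 14% of all genes rose in Ripk3KO and 19.7% in MlklKO. On CD-HFD 7 rose and 2 fell in each, where 24.6% of all genes rose and 21.7% fell in Ripk3KO and 24.9% rose and 20.3% fell in MlklKO. Between knockout and WT on CD-LFD 12 of 15 were not called in either knockout, 1 was higher and 2 were lower (medians -0.05 in Ripk3KO and 0.18 in MlklKO), where 0.794% of all genes were higher and 0.31% lower in Ripk3KO and 1.64% and 0.929% in MlklKO. Atf4 was among the lower genes in both, at -1.12 (adjusted p = 0.00282) and -0.87 (adjusted p = 0.00708). In these libraries clock phase and genotype cannot be told apart.

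The insulin and feeding list holds enzymes and factors of glucose use and fatty acid synthesis, which insulin and feeding raise, as they raise Angptl8. On CD-HFD 12 of 13 genes fell in WT and 0 rose (median log2 -2.28), 12 fell in Ripk3KO (median -1.94) and 11 in MlklKO (median -2.30), where 24.1%, 21.7% and 20.3% of all genes fell and their medians were -0.07, -0.05 and -0.04. Scd1, the stearoyl-CoA desaturase, changed by -5.005 ± 0.511 SE on the log2 scale, Me1 by -3.99 ± 0.504 SE, Thrsp by -3.70 ± 0.589 SE and Acacb by -3.08 ± 0.336 SE. The factors Srebf1 and Mlxipl changed by -2.19 and -1.44. On CD-LFD 6 of 13 fell in WT (median -0.48), where 14% of all genes fell, a count that was 3 with clock phase as a covariate and 2 in a fit of the compared groups only. Between knockout and WT on control diet 11 of 13 were not called in either knockout and 2 were lower, where 2.23% of all genes were lower in Ripk3KO and 14.1% in MlklKO. Srebf1 was lower in both (log2 -1.15 and -2.49).

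Of the PPAR-alpha and fasting list 3 of 18 genes rose and 7 fell in WT on CD-HFD, where 23.5% of all genes rose and 24.1% fell, and its median of -0.05 lay beside -0.07 for all genes. On CD-LFD 5 rose and 5 fell (median -0.14), where 13.7% of all genes rose and 14% fell. On CD-HFD G6pc of glucose release fell by 2.91 ± 0.477 SE, and Cyp4a14, Acot2 and Vnn1 rose by 1.87, 1.57 and 1.32. The factors Ppara and Creb3l3, both known activators of Fgf21, changed by -1.09 and -0.64. On CD-LFD 4 genes of the list were higher than WT in each knockout and 14 of 18 were not called, where 0.794% of all genes were higher in Ripk3KO and 1.64% in MlklKO. Creb3l3 was among them in both (0.59 and 0.54). These stand beside lower Fgf21 in the same libraries, where clock phase and genotype cannot be told apart.

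Of 20 other liver-secreted regulators 5 rose and 9 fell in WT on CD-HFD (median -0.08, against -0.07 for all genes), where 23.5% of all genes rose and 24.1% fell. On CD-LFD 7 rose and 4 fell (median -0.18), where 13.7% of all genes rose and 14% fell. Gpnmb, a glycoprotein of macrophages and liver, rose from 0.524 ± 0.675 to 348 ± 175 CPM (SD, n = 6 each) on CD-HFD, and Sparc, a matrix protein, by 1.92 ± 0.193 SE. The hepatokine Lect2 rose on both diets (log2 1.49 on CD-LFD and 1.09 on CD-HFD). The lists were chosen with earlier results of these data known.

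**Figure D5:**
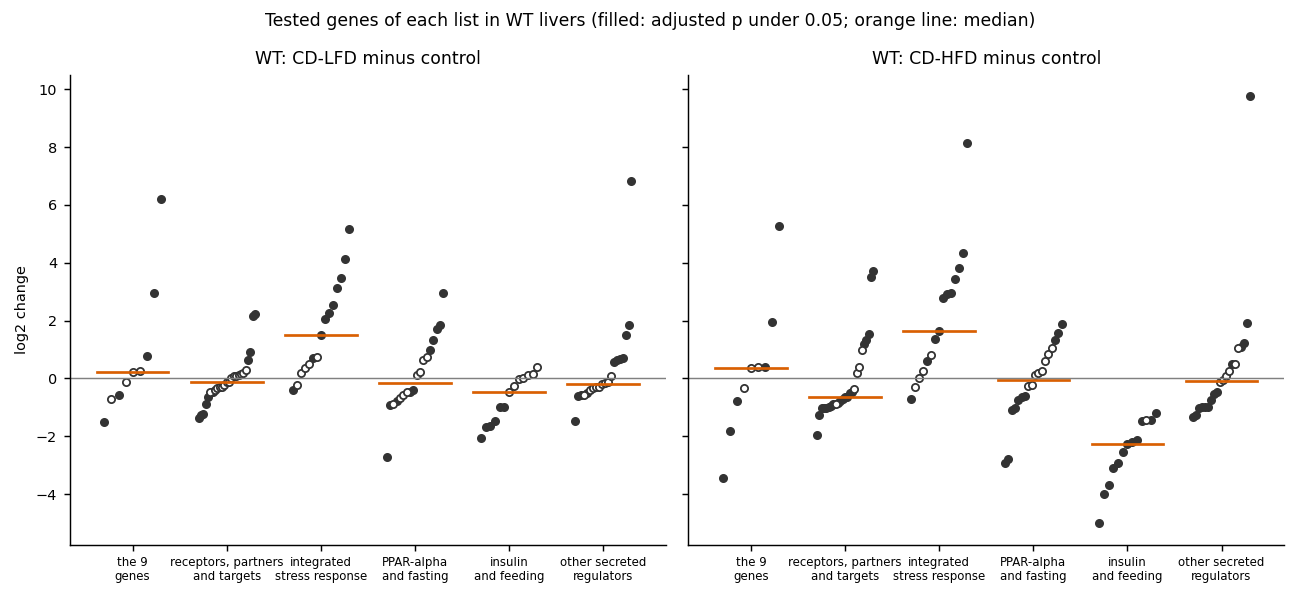
Each point is the log2 change of 1 tested gene in WT livers on CD-LFD (left) or CD-HFD (right) against control, by list, with called genes filled and the list median in orange. The insulin and feeding list lies below 0 on CD-HFD with a median of -2.28, and the integrated stress response list has a median of 1.64.

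Summed hepatocyte markers (7 of 8 listed genes in the table) had a median of 126000 CPM in WT control and 63500 CPM in WT CD-HFD livers, and 6 of the 7 were lower. Between these groups 23.5% of all genes were higher and 24.1% lower. Over the same groups the median sum of macrophage and Kupffer cell markers was 207 and 907 CPM (5 of 8 higher, 2 lower), that of stellate cell and myofibroblast markers 218 and 1050 CPM (7 of 8 higher) and that of cholangiocyte markers 58.5 and 870 CPM (6 of 6 higher). The sum of endothelial markers was 176 and 89.1 CPM (5 of 6 lower), 4 of 6 lymphocyte and 2 of 3 neutrophil markers were higher, 1 of 2 adipocyte markers was higher and 1 lower, and pancreatic acinar markers were under 1 CPM in both. On CD-LFD in WT, where 13.7% of all genes were higher and 14% lower, 3 of 7 hepatocyte and 4 of 6 endothelial markers were lower. Those higher were 3 of 8 macrophage and Kupffer cell (1 lower), 7 of 8 stellate and 4 of 6 cholangiocyte markers. Also higher were 4 of 6 lymphocyte and 1 of 2 adipocyte markers. Marker counts for diet changes within the knockouts are not given here. In whole liver fewer hepatocytes and less RNA per hepatocyte cannot be told apart, and the part of these shifts in the members' values was not tested. On control diet, where 13% of all genes were higher and 14.1% lower in MlklKO than in WT, the markers higher in MlklKO were 2 of 6 cholangiocyte, 2 of 6 endothelial, 2 of 3 neutrophil, 1 of 2 adipocyte, 1 of 8 stellate and 1 of 7 hepatocyte genes, and those lower were 2 of 6 lymphocyte and 1 of 6 endothelial genes.

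The genes most like each member over the 9 group means, out of 11144, were ranked by Pearson's r as a description. Neat1, Tgif1 and Iqcg were nearest to Fgf21 (0.975 to 0.955), Slc22a27, Parp16 and Alms1 to Gdf15 (0.963 to 0.957) and Tor2a, Rara and Tarbp2 to Inhbe (0.941 to 0.916). Nlrp12, Tigd5 and Tmed10 were nearest to Angptl4 (0.962 to 0.938), Mst1, Slc22a30 and Asb13 to Angptl6 (0.983 to 0.98) and Galt, Adh4 and Hsf2 to Angptl8 (0.977 to 0.974). Skp1a, Serpina1a and Mtch2 were nearest to Fetub (0.992 to 0.988), Atp6v0c, Selenof and Ivns1abp to Ahsg (0.989 to 0.959) and Cyp2d26, Hprt and Tmem126a to Rbp4 (0.987 to 0.979).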

How the data were processed

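RNA was measured by sequencing of liver, with libraries from a directional kit. The deposited values are unnormalised counts of reads for each Ensembl gene in 44 libraries. FastQC, STAR, HTSeq, edgeR and limma, with the builds GRCm39 and mm39, are named without role or version per the submitters' processing notes. Symbols were matched for 34373 of 35249 genes. The filter was filterByExpr with a minimum count of 10 and left 14862, and libraries were scaled by TMM (factors 0.799 to 1.34). The main test was edgeR 4.0.16 (quasi-likelihood F test, R 4.3.3) over all 44 libraries with 1 mean per group. P-values were adjusted by Benjamini-Hochberg over all genes within each of 19 contrasts, with a threshold of 0.05, and an SE was taken as the absolute log2 change over the square root of F. Lengths and overlapping genes came from GENCODE M21, an older build than those notes name, and were matched by gene. Bars of 2 SE reflect the spread between libraries.

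The alternatives tried were DESeq2 1.42.0, scaling by RLE or by library size alone, all genes with no filter, the compared groups only, the replicate number as a block, clock phase as a covariate and leaving out libraries. A fit of the 33 libraries on the low clock side was added after seeing the data. It held 2 of 6 WT control libraries and 0 of 6 WT CD-LFD libraries. Members and lists were chosen with earlier results of these data known. Named genes were the 9 members, Ripk3 and Mlkl, fixed factors and receptors, up to 4 called genes per list with the largest change and no overlap between groups in WT CD-HFD against control, and the 3 genes most like each member. The genes that overlap a member were named after their values were seen. The test was tried on simulated data. A gene that the naming rule would name is not reported here.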

Additional observations from a re-analysis of the deposited data

Results flagged for a closer look

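In groups of 4 to 6 libraries, 5 of 63 combinations of gene and group held a library far from the others (Dixon's ratio on untransformed CPM). Chance gives about 1 in 20 for independent, normally distributed values, a condition that was not tested. Fgf21 was 202.7 CPM in WT CD-LFD replicate 5 against 59.1 to 92.1 CPM in the other WT CD-LFD libraries, and 6.075 CPM in Ripk3KO control replicate 2 against 0.158 to 1.94 CPM. Angptl4 was 37.97 CPM in WT CD-HFD replicate 3 against 126 to 148 CPM. Angptl8 was 35.29 CPM in WT CD-HFD replicate 6 against 13.2 to 20.5 CPM, and 260.5 CPM in MlklKO CD-LFD replicate 4 against 37.9 to 45.4 CPM.

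For Angptl8 the diet changes of MlklKO and WT differed by an interaction test, by 3.396 on the log2 scale for CD-LFD and by 2.355 for CD-HFD. The first was 2.17 without MlklKO CD-LFD replicate 4 and was called in all 22 fits that left out 1 library, and the second was lost in 10 of 21 such fits. Without MlklKO CD-HFD replicate 1, whose Mlkl level goes against its label, the second was 1.32 (adjusted p = 0.36 by edgeR), and in the other 9 fits that lost it the value was 1.99 to 2.64.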

How the results depend on the processing

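Of 48 called member results 23 were called in every fit, and of 123 not called 94 were called in none. The numbers of members called that moved are given with their main value first. Shares of all genes called under each setting are not set beside them. A moved count is therefore not read as a result about the members. On CD-LFD clock phase and genotype cannot be told apart. With clock phase as a covariate they were 3 and 0 for MlklKO and 2 and 0 for Ripk3KO against WT on CD-LFD, 3 and 1 for Ripk3KO against WT on control diet, and 1 and 0 for the MlklKO interaction on CD-HFD. In the compared groups only they were 3 and 0 for Ripk3KO against WT on control diet, 1 and 0 for that interaction, 0 and 3 for CD-HFD against CD-LFD in Ripk3KO, and 2 and 1 for CD-LFD against control in Ripk3KO. On the low clock side alone that interaction gave 2, Angptl4 and Ahsg, while Angptl8 was lost (2.36, adjusted p = 0.0658), and CD-HFD against CD-LFD in Ripk3KO gave 1. Without the 2 libraries whose targeted gene goes against the label the interaction gave 0 and CD-LFD against control in Ripk3KO gave 1, and without WT control replicates 5 and 6, which hold most counts of predicted genes, the interaction gave 0. DESeq2 gave 2 for the MlklKO interaction on CD-LFD and 1 for each Ripk3KO interaction, as did no count filter for the latter. Library size alone gave 2 for CD-HFD against CD-LFD in MlklKO. It reversed the CD-HFD changes of Ahsg in MlklKO (0.477, adjusted p = 0.0084) and Ripk3KO (0.508, adjusted p = 0.0023) and of Rbp4 in Ripk3KO (0.0419, adjusted p = 0.844) in edgeR.

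With the replicate number as a block, CD-HFD against CD-LFD in Ripk3KO called 1 and the MlklKO interaction on CD-LFD 2, and no other count moved by over 1.5 times. The numbers were not taken to pair the samples, since in 0 of 36 group pairs did all same-numbered libraries correlate above 0.1 (median r -0.0159, against -0.00126 for other numbers). Among the WT groups the same-numbered medians were 0.231, 0.252 and 0.11.

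Leaving out 1 library gave 0 to 1 for Ripk3KO against WT on CD-HFD, 1 to 2 for it on CD-LFD, 2 to 4 for CD-HFD against CD-LFD in MlklKO and 0 to 1 in Ripk3KO, 2 to 5 for CD-LFD against control in MlklKO and 1 to 2 in Ripk3KO, and 0 to 1 and 1 to 2 for the MlklKO interactions on CD-HFD and CD-LFD. Depth limits Fgf21 on control diet, where libraries held 0 to 11 counts in WT, 1 to 29 in Ripk3KO and 0 to 7 in MlklKO.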
